A study of Mus musculus with 6 samples.

Results

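The genes described here encode the collagens, the laminins and the integrins of the mouse. They were taken by symbol from the authors' gene tables: Col followed by a chain number, Lama, Lamb or Lamc followed by a number, and Itga or Itgb followed by a number, a letter or both (Itga2b). Of the 18778 genes named in the tables, 53 met the rule: 25 collagen, 8 laminin and 20 integrin genes. RefSeq lists 82 protein-coding genes with such symbols, and the 29 that were in none of the tables, among them Col1a1, Col6a1, Lama2 and Itga7, were not analysed here. Symbols such as Itgb1bp1, Itgb3bp and Col4a3bp belong to binding proteins and were left out.

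Collagens are triple-helical proteins that form the fibrils and sheets of the extracellular matrix, and laminins are glycoproteins of an alpha, a beta and a gamma chain that polymerise in basement membranes. Integrins are receptors of an alpha and a beta chain that link these matrices to the cytoskeleton. Neural stem cells adhere to laminin through integrins, and differentiating neurons use laminin as a substrate for neurite growth. H3K4me3 (trimethylated lysine 4 of histone H3) is found at promoters that are active or can be activated, and H3K27me3 (trimethylated lysine 27) is deposited by Polycomb repressive complex 2 over repressed regions.

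Cells of the C57BL/6 strain were compared at 2 stages: neural stem cells (NSCs), derived from embryonic stem cells and used at passage 25 to 30 (day 0, negative for the RedStar reporter), and neurons made from them (day 11). The neurons had spent 4 days in a first differentiation medium and 7 days in a second, and were sorted as positive for RedStar, a fluorescent protein under the promoter of Tau (Mapt), so the population holds whichever cells had switched that promoter on. The data comprised 4 immunoprecipitated libraries, 1 for each antibody and stage, and 2 input libraries. There were no replicates, so every difference below is a difference between 2 libraries without a replicate check, and no p-values are given.

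A gene was called marked when a peak of the authors' list lay within 1 kb of its start site, lost when NSCs alone had such a peak, and gained when neurons alone had it. Reads inside peaks numbered from 983266 in the neuron H3K4me3 library to 3623654 in NSC H3K4me3. The neuron H3K4me3 library was less enriched: over 397 peaks whose bounds were identical between the lists it had 0.399 times the reads of NSCs, with 0.775 times the input reads. In 114 such H3K27me3 peaks the ratios were 0.981 and 0.784. Of marker genes for the cell types, 6 of 6 for neural stem cells (Nes, Sox2, Olig2, Hes5, Fabp7, Vim) carried H3K4me3 in NSCs and also in the sorted neurons. Of 6 neuronal genes, 3 had H3K4me3 in NSCs and 4 in neurons, and 4 had H3K27me3 in NSCs and 1 in neurons. Of 4 astrocyte genes, 2 had H3K4me3 in NSCs and 1 in neurons. In a cell population, fewer marked cells and less of a mark per cell cannot be told apart. Of fibroblast, endothelial and leukocyte markers the tables held 4, 3 and 1 genes, of which 1, 1 and 0 had H3K4me3 in NSCs and 2, 0 and 0 in neurons.

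The sequences just upstream of 7 start sites show the range of promoters in these families. They come from RefSeq on build GRCm38.p6, whereas the peaks are on mm9, and end directly before the outermost start of the RefSeq gene. CpG dinucleotides, the feature that most mammalian H3K4me3 promoters share, are in capitals. Itgb1 (chr8:128685454-128685653, plus strand) kept H3K4me3 in neurons, Itgb5 (chr16:33829465-33829664, plus) held both marks in both cell types, and Col5a1 (chr2:27886181-27886380, plus) held both in NSCs and lost H3K4me3. Itga8 (chr2:12301986-12302185, minus) and Col11a1 (chr3:114030290-114030478, plus) carried H3K4me3 in NSCs and H3K27me3 in neurons. Col3a1 (chr1:45311338-45311537, plus) carried H3K27me3 alone, and Itgax (chr7:128129326-128129525, plus) neither mark.
Itgb1: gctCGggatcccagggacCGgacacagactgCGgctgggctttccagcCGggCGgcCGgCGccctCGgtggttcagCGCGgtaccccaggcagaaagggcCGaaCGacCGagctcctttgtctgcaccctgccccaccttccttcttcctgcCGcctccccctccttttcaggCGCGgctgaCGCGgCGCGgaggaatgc
Itgb5: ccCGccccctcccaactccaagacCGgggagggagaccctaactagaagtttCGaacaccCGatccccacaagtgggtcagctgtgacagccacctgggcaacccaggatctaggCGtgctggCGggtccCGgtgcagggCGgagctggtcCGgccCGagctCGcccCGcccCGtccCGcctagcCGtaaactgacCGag
Col5a1: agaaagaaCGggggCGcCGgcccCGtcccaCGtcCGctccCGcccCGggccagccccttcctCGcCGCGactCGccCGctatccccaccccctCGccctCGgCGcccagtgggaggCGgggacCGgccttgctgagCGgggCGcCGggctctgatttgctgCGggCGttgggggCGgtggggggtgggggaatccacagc
Itga8: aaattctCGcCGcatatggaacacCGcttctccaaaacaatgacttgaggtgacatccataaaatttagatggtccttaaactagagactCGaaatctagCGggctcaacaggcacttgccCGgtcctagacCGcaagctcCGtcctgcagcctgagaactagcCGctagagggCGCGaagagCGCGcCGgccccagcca
Col11a1: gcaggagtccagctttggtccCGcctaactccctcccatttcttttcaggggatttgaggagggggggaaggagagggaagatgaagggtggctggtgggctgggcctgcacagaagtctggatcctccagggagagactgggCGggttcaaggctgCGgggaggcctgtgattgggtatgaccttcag
Col3a1: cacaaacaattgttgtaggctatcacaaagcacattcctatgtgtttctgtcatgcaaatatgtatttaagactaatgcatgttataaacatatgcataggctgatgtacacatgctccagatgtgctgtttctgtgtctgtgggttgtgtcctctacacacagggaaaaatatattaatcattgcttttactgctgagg
Itgax: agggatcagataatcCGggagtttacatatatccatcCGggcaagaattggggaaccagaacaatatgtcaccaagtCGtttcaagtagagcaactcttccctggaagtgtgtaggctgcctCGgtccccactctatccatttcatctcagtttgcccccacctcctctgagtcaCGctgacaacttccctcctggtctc
The stretch of Col5a1 held 24 CpGs, that of Itgb1 20, of Itgb5 16 and of Itga8 14, whereas Itgax had 5, Col11a1 3 in its 189 bases and Col3a1 0.

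Over the 3 families together, H3K4me3 stood at a smaller share of start sites than over all genes, and H3K27me3 at a larger one. In NSCs 24 of the 53 genes (45.3%) had H3K4me3, against 70.4% of all genes in the tables, and in neurons 12 (22.6%) against 61.7%. H3K27me3 was at 23 genes (43.4%) in NSCs, against 19.2%, and at 25 (47.2%) in neurons, against 17.9%. Collagen genes carried the Polycomb mark most often, 17 of 25 in NSCs and 16 in neurons, and H3K4me3 at 9 and 2. Integrin genes had H3K4me3 more often than H3K27me3, though in neurons by little. H3K4me3 was at 10 of 20 integrin genes in NSCs (50.0%) and 7 in neurons (35.0%). Both shares were below the 70.4% and 61.7% of all genes. H3K27me3 was at 3 integrin genes in NSCs (15.0%, below the 19.2% of all genes) and 6 in neurons (30.0%, above the 17.9%). Of the 8 laminin genes 5 had H3K4me3 in NSCs and 3 in neurons, and 3 had H3K27me3 in each. Neither mark was found at 13 genes in either cell type (against 16.7% of all genes): 5 collagen and 8 integrin genes.

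**Figure D1:**
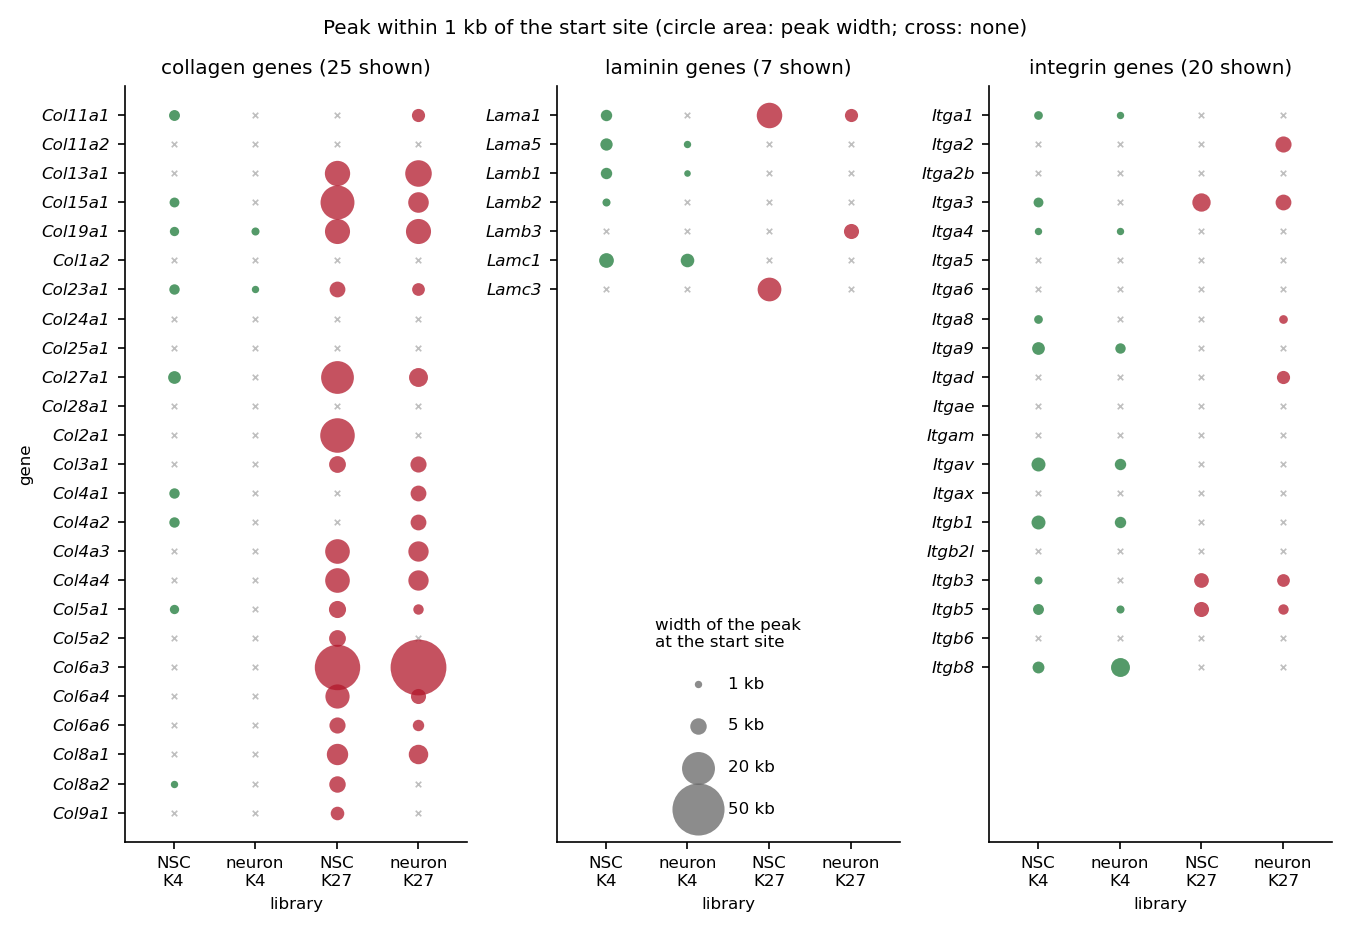
Peaks at the start sites of the 25 collagen, 7 of the 8 laminin and the 20 integrin genes in the 4 libraries (K4, H3K4me3, green; K27, H3K27me3, red); circle area gives the width of the peak nearest the start site and a cross means that no peak lay within 1 kb. Collagen rows hold mostly red circles, 17 in NSCs and 16 in neurons, and green circles drop from 24 in NSCs to 12 in neurons over the 3 families.

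The 10 members on chromosome 1 were also counted apart, because input reads were raised there. Input reads per kb of peak on chromosome 1 stood at 1.46 times the median autosome in the NSC H3K27me3 list and 1.48 times in the neuronal one. H3K27me3 was at 8 of these 10 genes in NSCs and 7 in neurons, against 25.4% and 26.4% of all chromosome 1 genes. On the other chromosomes it was at 15 of 43 (34.9%) in NSCs and 18 (41.9%) in neurons, against 18.6% and 17.1% of all genes there. The part of the raised input in these calls was not tested. None of the 12 losses of H3K4me3 lay on chromosome 1, but only 2 members there had the mark in NSCs. Of all genes marked there, 79 of 803 lost it.

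The comparison of stem cells with neurons asked which start sites differed in H3K4me3. Of the 24 genes with the mark in NSCs 12 had lost it in neurons (50.0%), against 13.6% of all marked genes, and none of the 29 unmarked genes had gained it, against 2.81%. Losses with no neuronal peak within 10 kb numbered 11, against 10.6% of all marked genes. When peaks in all lists were held to an FDR under 1e-20, 15 of 22 genes had lost the mark, against 40.1% of all genes. The losses were 7 of 9 collagen, 2 of 5 laminin and 3 of 10 integrin genes. The NSC peaks of these families held a median of 98, 134 and 188 reads, and whether the families differ in loss was not tested. The collagens that lost it were Col4a1, Col4a2, Col5a1, Col11a1, Col15a1, Col27a1 and Col8a2, and those that kept it were Col19a1 and Col23a1. Of the laminins Lama1 and Lamb2 lost it, and Lama5, Lamb1 and Lamc1 kept it. Of the integrins Itga3, Itga8 and Itgb3 lost it, and Itga1, Itga4, Itga9, Itgav, Itgb1, Itgb5 and Itgb8 kept it.

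**Figure D2:**
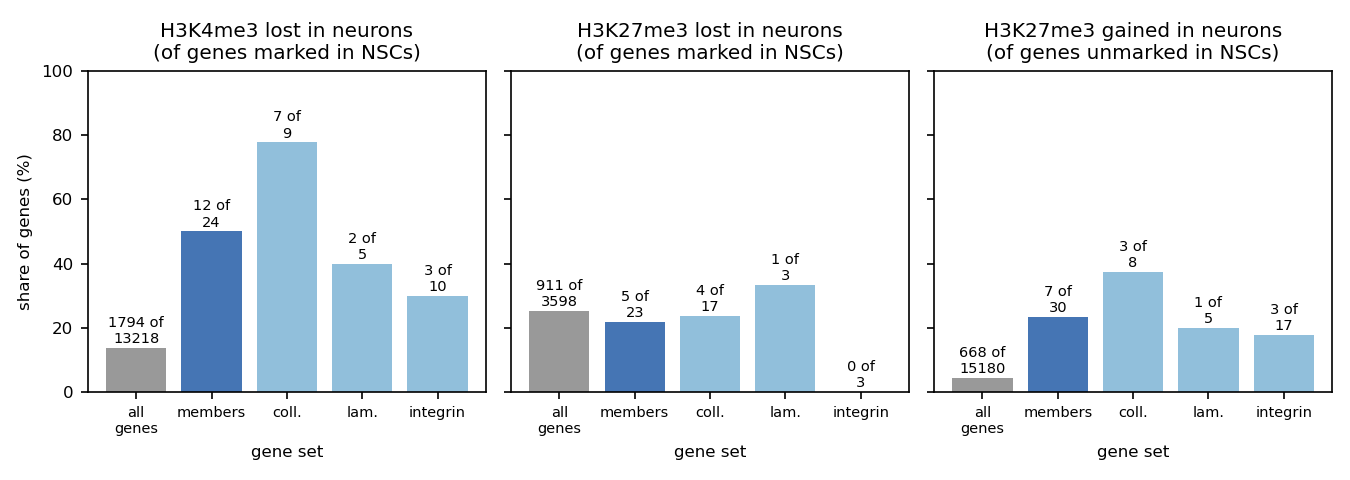
Share of start sites (y axis, percent) that lost H3K4me3, lost H3K27me3 or gained H3K27me3 in neurons, for all genes in the tables, the 53 genes together and each family; the counts stand above the bars. Loss of H3K4me3 was 12 of 24 against 1794 of 13218 genes, loss of H3K27me3 5 of 23 against 911 of 3598, and gain of H3K27me3 7 of 30 against 668 of 15180.

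Over all genes, NSC peaks that were lost held fewer reads (median 72) than those kept (median 250), so the losses were also read within classes of read count. The 12 genes that lost the mark had a median of 92.5 reads in the NSC peak, from 35 to 179, and the 12 that kept it a median of 250.5. Split at the marked members' median of 137.5 reads, 8 of the 12 below it had lost the mark, against 52.3% of all genes below it. Of the 12 at or above it 4 had lost the mark, against 2.71% of all genes there, and these 4 were the collagens Col4a1, Col4a2, Col5a1 and Col27a1. Their peaks held 141 to 179 reads, near the lower end of that class, which has no upper limit, so the 2.71% is not a like background. Between 35 and 179 reads, a range set by the losses themselves, 12 of 17 members had lost the mark, against 32.8% of 4098 genes. Col4a1 and Col4a2 share a single peak, so these are 3 peaks.

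Type IV collagen is the sheet-forming collagen of basement membranes, and Col4a1 and Col4a2 encode the chains of its common form. Their start sites lie head to head on chromosome 8 of mm9, at 11312826 (Col4a1, minus strand) and 11312805 (Col4a2, plus strand), 21 bp apart. In NSCs a 2000 bp H3K4me3 peak with 141 reads over 23 input reads covered both. In neurons the nearest H3K4me3 peak was 184.2 kb away. H3K27me3 showed the reverse: the nearest NSC peak was 164.4 kb away, and in neurons a 4600 bp domain with 91 reads over 25 covered both starts. Both changes at this pair were present under all 7 other settings that were tried.

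The same exchange of marks was called at Col11a1 and Itga8. Col11a1, a minor fibrillar collagen on chromosome 3 (113733458 to 113923636), had an NSC H3K4me3 peak of 2200 bp with 89 reads over 9, and no neuronal one within 398.5 kb. In neurons it had an H3K27me3 peak of 3200 bp with 47 reads over 23, whereas NSCs had none within 36.9 kb. Itga8, whose integrin binds RGD-containing matrix proteins such as nephronectin and fibronectin, lies on chromosome 2 (12028259 to 12223555). It had 58 H3K4me3 reads over 12 in NSCs in a 1400 bp peak, and 116.2 kb to the nearest neuronal peak. Its neuronal H3K27me3 peak was 1400 bp wide with 34 reads over 6, 156 bp inside the gene, whereas NSCs had none within 148.2 kb. The H3K27me3 calls at both genes were thin and were not made under a false discovery rate (FDR) limit of 1e-20.
Of the 14 genes with H3K4me3 alone in NSCs, 5 lost it, against 9.62% of all such genes, and 4 gained H3K27me3, against 2.76%. All 4 went to H3K27me3 alone in neurons (Col4a1, Col4a2, Col11a1 and Itga8, at 3 separate places), against 123 of 11617 such genes (1.06%).

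**Figure D3:**
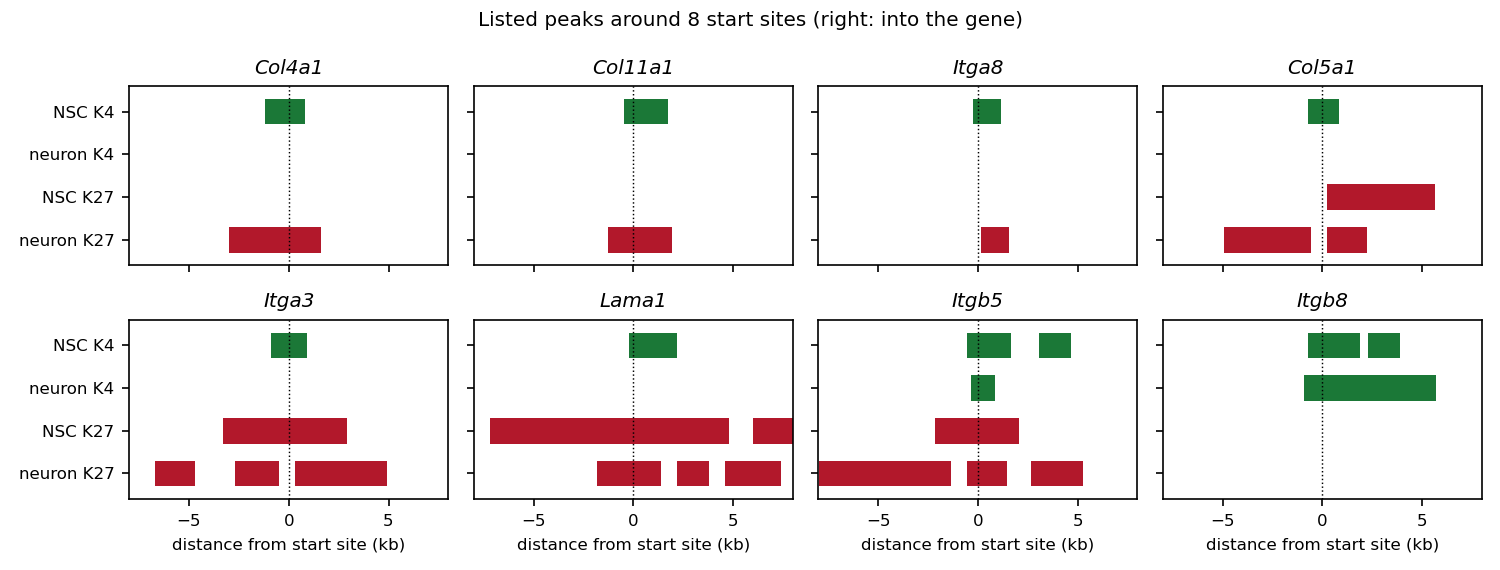
Listed peaks (bars) within 8 kb of 8 start sites in the 4 libraries, with distance from the start site in kb on the x axis and transcription towards the right (K4, H3K4me3; K27, H3K27me3). At Col4a1, Col11a1 and Itga8 a green bar in NSCs stands where neurons have a red bar only, and at Itgb8 the neuronal green bar of 6600 bp is wider than that of NSCs.

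Both marks were found at 10 genes in NSCs, a combination often called a bivalent state although a cell population cannot show that both sit on the same nucleosome. These were 6 collagens (Col5a1, Col8a2, Col15a1, Col19a1, Col23a1 and Col27a1), the laminin Lama1, and the integrins Itga3, Itgb3 and Itgb5. Among all genes 8.53% carried both. Of the 10, 7 lost H3K4me3 in neurons, against 42.2% of all such genes. Of these 7, 6 still had H3K27me3, a share near that of all genes (597 of 676). Both marks remained in neurons at Col19a1, Col23a1 and Itgb5, 3 of the 53 genes, against 4.59% of all genes. Col19a1, a collagen associated with fibril surfaces, had 93 H3K4me3 reads over 16 in NSCs and 28 over 14 in neurons, where the peak lay 712 bp from the start site. Its H3K27me3 domain was 11600 bp wide in both, with 259 reads over 159 and 294 over 141. Col19a1 lies on chromosome 1, where input reads were raised. Col23a1, a transmembrane collagen, had 98 H3K4me3 reads over 16 in NSCs and 25 over 9 in neurons, and 86 over 31 and 68 over 20 of H3K27me3. Itgb5, the beta chain of a vitronectin receptor, had 217 H3K4me3 reads over 16 in NSCs and 49 over 5 in neurons, and 63 over 34 and 50 over 13 of H3K27me3. All 3 genes thus had fewer H3K4me3 reads in neurons, in the library with the lower enrichment.

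Col5a1, a fibrillar collagen that regulates fibril diameter (chromosome 2, 27741945 to 27895034), had the deepest peak among the losses. Its NSC H3K4me3 peak held 179 reads over 12 in 1600 bp, a fold over input of 15.3 in the authors' list, and neurons had none within 207.3 kb. Its H3K27me3 peak began 255 bp into the gene in both cell types, 5400 bp wide with 67 reads over 38 in NSCs and 2000 bp wide with 46 over 13 in neurons. Col27a1, a fibrillar collagen of cartilage, had 169 H3K4me3 reads over 21 in NSCs. Here the neuronal peak, with 70 reads over 20 in 2400 bp, lay 1362 bp from the start site, so the loss at this gene is one of position by the 1 kb limit. Col15a1, a collagen of the basement membrane zone, and Col8a2, of the corneal Descemet membrane, had thin NSC H3K4me3 peaks of 38 and 35 reads. Scaled by the 0.399 of the shared peaks these would hold 15.2 and 14.0 reads in neurons, where the thinnest peaks of like width (within 400 bp) held 23 and 16. For the other 10 losses the scaled count was 23.1 to 71.4 reads, above the thinnest neuronal peak of like width, but at some genes not by much. Peaks of like width with fewer reads made up 1.08% at Lama1, 2.35% at Col11a1, 3.42% at Itga8 and 3.62% at Col27a1. The share was 18.3% at Lamb2, 24.5% at Col4a1 and Col4a2, 25.8% at Itga3, 35.0% at Itgb3 and 72.1% at Col5a1. The part of the lower enrichment in these losses was not tested.

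Lama1 encodes the alpha chain of laminin-111, the laminin of the early embryo and of the pial basement membrane. In NSCs it had 96 H3K4me3 reads over 26 in 2400 bp, and neurons had no such peak within 217995 bp. The domain of H3K27me3 measured 12000 bp in NSCs, with 262 reads over 111, and 3200 bp in neurons, with 74 over 32. Lamb2, of the beta chain found at neuromuscular junctions and in the kidney filter, had 64 H3K4me3 reads over 12 in NSCs, none within 10.3 kb in neurons, and no H3K27me3 in either.
Itga3, the alpha chain of a laminin receptor, had 116 H3K4me3 reads over 18 in NSCs, but in neurons no peak was closer than 35.3 kb. H3K27me3 was present there in both, with 178 reads over 55 in NSCs and 80 over 29 in neurons. Itgb3, the beta chain of vitronectin and fibrinogen receptors, had 76 H3K4me3 reads over 14 in NSCs, none within 57.4 kb in neurons, and H3K27me3 with 74 reads in each, over 35 input reads in NSCs and 24 in neurons.

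Subunits of broadly used laminins and integrins were among those that kept H3K4me3. Lamc1, the gamma chain of most laminins, had the deepest NSC peak of all 53 genes, 593 reads over 63 in 4000 bp, and 199 over 48 in 3400 bp in neurons. Itgb1, the beta chain of most laminin and collagen receptors, had 297 reads over 39 in NSCs and 100 over 18 in neurons. Itgav, the alpha chain of vitronectin receptors, had 380 over 39 and 93 over 25. No H3K27me3 peak lay at the start of Lamc1, Itgb1 or Itgav in NSCs or in neurons. Of these genes Lamc1 lies on chromosome 1, where input reads were raised. Lama5, the alpha chain of laminin-511, had 292 reads over 15 in NSCs and 49 over 8 in neurons, and its peak went from 2800 to 1000 bp. Lamb1, the beta chain of laminin-111 and laminin-511, was left with 22 reads over 7 in 800 bp in neurons, from 134 over 31. A count of 22 reads has an exact Poisson 95% interval of 13.8 to 33.3, which covers counting error only.
Itga1, of a collagen receptor, had 159 reads in NSCs and 29 in neurons, Itga9, of a tenascin receptor, 288 and 61, and Itga4, of a fibronectin and VCAM-1 receptor, 42 and 26. The order of the 2 cell types was the same at each of them.

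Among the 12 genes that kept H3K4me3, 10 had a narrower peak in neurons, and the median ratio of neuronal to NSC width was 0.67, against 0.73 over the 11424 genes that kept the mark. Itgb8, of the integrin that activates latent TGF-beta and which neural progenitors use, was the 1 gene with a wider peak, and Itga4 had the same width in both. The Itgb8 peak on chromosome 12 was 2600 bp wide with 284 reads over 25 in NSCs and 6600 bp wide with 338 over 78 in neurons. It was the only member with more H3K4me3 reads at the start site in neurons than in NSCs. A width ratio as high as its 2.54 was found at 0.201% of genes with the mark in both cell types. NSCs had a second peak of 1600 bp with 48 reads from 2276 bp into the gene, within the span of the neuronal peak.

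**Figure D4:**
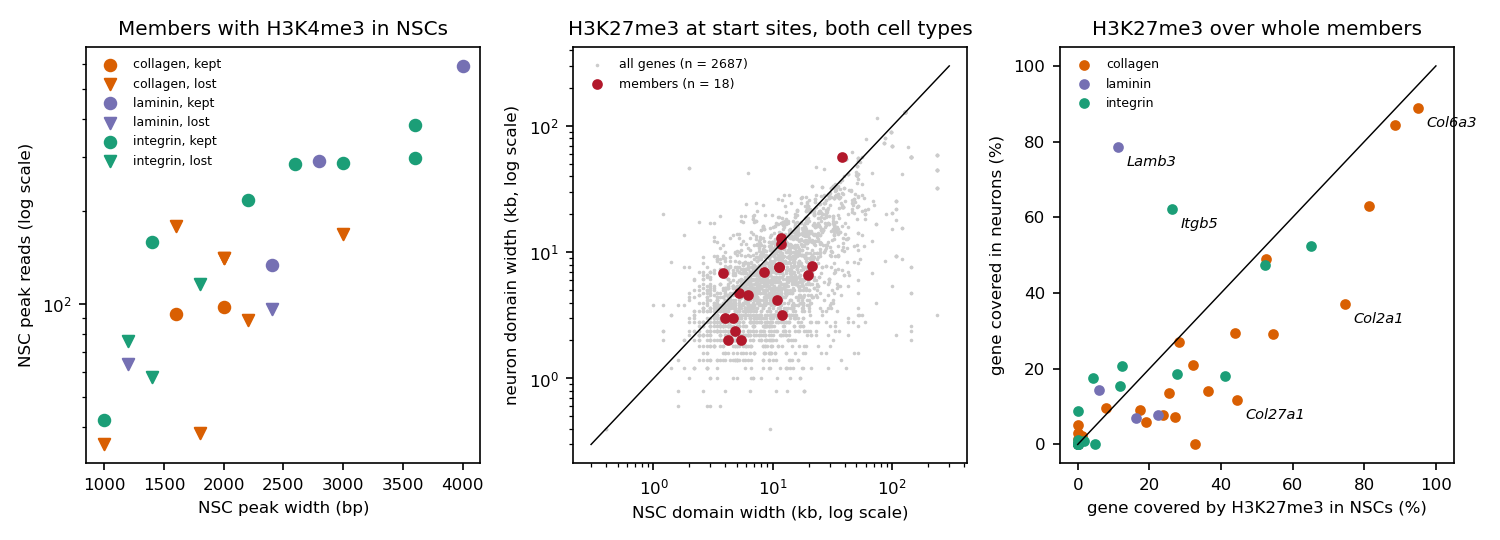
Left, reads (log scale) against width of the NSC H3K4me3 peak for the 24 marked genes, by family and by whether the mark was kept (circles) or lost (triangles) in neurons; middle, width of the H3K27me3 domain at the start site in both cell types (log scales, line of equality) for 18 members and 2687 genes; right, percent of each gene covered by H3K27me3 in both cell types. The 4 losses above 137.5 reads are collagens, the members lie within the cloud of all genes, and Lamb3 and Itgb5 lie far above the line of equality.

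H3K27me3 was compared in the same way. Of the 23 genes with it in NSCs 5 had lost it in neurons (21.7%, against 25.3% of all marked genes), which is near the background. Of the 30 without it 7 had gained it (23.3%), against 4.4% of all genes. The gains were Col4a1, Col4a2, Col11a1, Itga8, Itga2, Itgad and Lamb3. Of them 5 had no NSC peak within 10 kb (5 of 30, against 2.79% of all genes). Col4a1 and Col4a2 share a single neuronal domain, and with head-to-head pairs counted once the gains numbered 6. The losses were Col2a1, Col5a2, Col8a2, Col9a1 and Lamc3, of which Col8a2 alone had no neuronal peak within 10 kb (1 of 23, against 8.95%).
Lamc3, a gamma chain of laminins in the cortex and retina, had a 10400 bp NSC domain with 181 reads over 100, and its neuronal peak of 89 reads over 21 ended 1002 bp from the start site, just outside the limit. Col2a1, the fibrillar collagen of cartilage, had the widest NSC domain of the losses, 22000 bp with 496 reads over 167. Within the span of that domain neurons had peaks of 1800 and 800 bp upstream of Col2a1, with 37 and 25 reads, and one of 11400 bp with 249 over 92 that began 2127 bp into the gene. Col9a1, a cartilage collagen bound to fibrils, had a thin NSC peak of 45 reads over 36, and in neurons a peak lay 2250 bp away. Col5a2, the partner chain of Col5a1, had 68 reads over 48 in NSCs and a neuronal peak 3728 bp away. At these 4 genes the mark was therefore still called near the start site. Of them, Col9a1 and Col5a2 lie on chromosome 1, where input reads were raised. At Col8a2 the NSC domain of 5000 bp held 111 reads over 37, and neurons had none within 13.4 kb. Col8a2 was the only gene of the 53 that lost both marks.

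Among the gains, Lamb3, a beta chain of the epidermal laminin-332, stood out for the length of gene covered. In NSCs a single peak of 74 reads over 70 covered 11.2% of the gene with its 1 kb upstream, and in neurons 5 peaks covered 78.6%, with 108 reads over 38 at the start site. Lamb3 lies on chromosome 1. Itga2, of a collagen receptor of platelets and epithelia, had 100 reads over 36 at its start in neurons, and its coverage was 4.32% in NSCs and 17.5% in neurons. Itgad, of a leukocyte integrin, had 57 over 17 in neurons, with an NSC peak 1893 bp away. Itgb5, which had the mark in both cell types, was covered for 26.3% in NSCs, in 7 peaks, and for 62.1% in neurons, in 18 peaks.

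Several collagen genes without H3K4me3 lay in wide H3K27me3 domains in both cell types. The widest at a start site was at Col6a3, a chain of the beaded filaments of muscle and tendon, on chromosome 1: 38.0 kb with 918 reads over 470 in NSCs and 57.4 kb with 1597 over 569 in neurons. H3K27me3 covered 95.1% of this gene in NSCs and 88.8% in neurons. Col4a3 and Col4a4, chains of the kidney's type IV collagen whose starts lie 72 bp apart, shared a domain of 11.2 kb in NSCs, with 214 reads over 139, and of 7.6 kb in neurons, with 172 over 97. Col4a3 was covered for 88.7% in NSCs and 84.3% in neurons, and Col8a1, a vascular network collagen, for 81.4% and 62.9%. Col13a1, a transmembrane collagen of the neuromuscular junction, had 320 reads over 97 in 11.8 kb and 291 over 85 in 13.0 kb. Col3a1, a fibrillar collagen of vessels and skin, had 86 over 55 and 98 over 55. Like Col6a3, the genes Col4a3, Col4a4 and Col3a1 lie on chromosome 1, where input reads were raised.
Domains were narrower in neurons at 14 of the 18 genes with the mark in both cell types, and the median width ratio of 0.68 was close to the 0.66 of all 2687 genes. The ratio was 0.27 at Lama1 and 1.51 at Col6a3. At Col15a1 the domain went from 21.2 to 7.8 kb, with 475 reads over 174 in NSCs and 192 over 66 in neurons, and at Col27a1 from 19.8 to 6.6 kb, with 446 over 183 and 201 over 62. Col27a1 was covered for 44.6% in NSCs and 11.8% in neurons.

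The 13 genes with neither mark in either cell type included 4 integrin genes of leukocytes or platelets (Itgae, Itgam, Itgax and Itga2b), whereas Itgad, Itga2 and Itgb3, also used by such cells, had H3K27me3 in neurons. The rest of the 13 were Itga5, Itga6, Itgb2l, Itgb6, Col1a2, Col11a2, Col24a1, Col25a1 and Col28a1. Away from the start site, H3K27me3 covered 52.4% of Itgb2l in NSCs and 47.5% in neurons. It covered 32.7% of Col1a2 in NSCs and 0.0% in neurons. In neurons it covered 8.78% of Itgb6 and 2.14% of Col25a1. Itga5, Itga6, Col11a2, Col24a1 and Col28a1 had no H3K27me3 peak in the gene in either cell type. Some of the calls of neither mark turn on where the deposited start site lies. The deposited model of Itga6, the alpha chain of the laminin receptor by which neural stem cells are often recognised, is 112.8 kb long, whereas RefSeq gives 71.5 kb. An NSC H3K4me3 peak of 2800 bp with 291 reads over 26 lay from 40.9 to 43.7 kb into the deposited gene, and in neurons 2 peaks with 61 and 30 reads lay from 41.5 to 45.1 kb. Itga6 therefore counts as unmarked by the rule, although it holds H3K4me3 inside the gene in both cell types. Of the 29 members without H3K4me3 at the start site in NSCs, 15 had a peak elsewhere in the gene (51.7%, against 20.5% of all such genes). Among those at or above 72.6 kb, the median length of these 29 members, the shares were 9 of 15 members and 61.4% of all genes. Among the shorter ones they were 6 of 14 members and 15.1%. The integrin genes Itgam, Itgax and Itgad, neighbours on chromosome 7, had no H3K4me3 peak anywhere in the gene, and H3K27me3 covered 27.7%, 65.0% and 41.0% of them in NSCs and 18.6%, 52.3% and 18.0% in neurons.

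Members with H3K4me3 in NSCs had more CpGs at the promoter than those without. Promoter windows of 300 bases, 250 before to 50 after the RefSeq start, were found for 42 of the 53 genes. The observed over expected CpG ratio had a median of 0.64 in the 21 with H3K4me3 in NSCs and 0.32 in the 21 without, against 0.80 and 0.31 over all genes matched. Members that lost the mark had a median of 0.79 (10 windows) and those that kept it 0.62 (11), whereas over all genes the order was the other way round, 0.67 for lost and 0.81 for kept. Among the losses Col4a1 had 0.90, Itga8 0.88, Col8a2 0.83 and Col5a1 0.81, and Col11a1 with 0.33 and Lamb2 with 0.28 were low. The ranges of lost (0.28 to 0.90) and kept (0.32 to 0.80) overlapped over most of their length.
A GC box (GGGCGG on either strand) was in 54.8% of the 42 windows, against 62.1% of 9955 windows of all genes, a CCAAT box (CCAAT, either strand) in 21.4% against 39.2%, and a TATA box (TATAAA, either strand) in 7.14% against 7.75%. None of these motifs contains another. The TATA letters were in 3 of the 21 windows without H3K4me3 in NSCs and in 0 of the 21 with it.

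**Figure D5:**
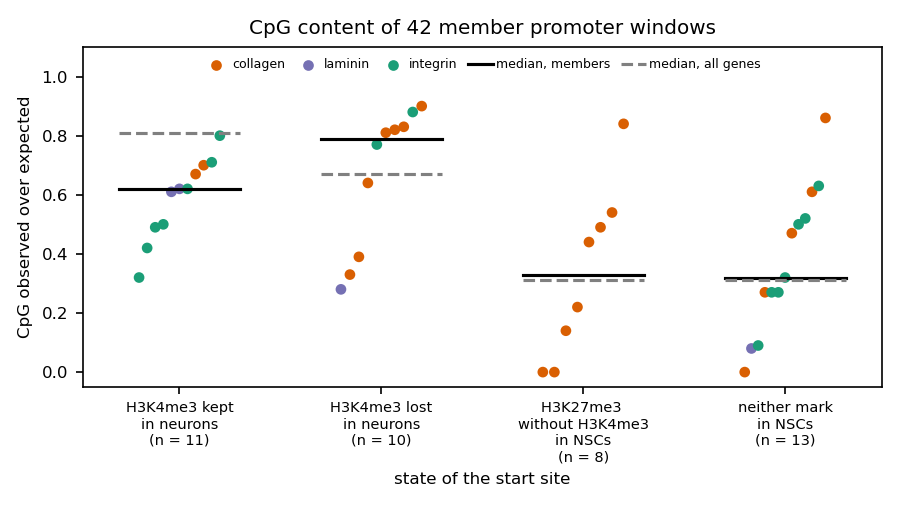
CpG observed over expected in the 300-base RefSeq window (y axis) of 42 members by the state of their start site (x axis); points are genes coloured by family, the solid line is the members' median and the dashed line the median of all genes in that state. The medians of members are 0.62 for kept and 0.79 for lost H3K4me3, and those of all genes 0.81 and 0.67.

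The 53 genes are long, with a median of 82.5 kb against 15.6 kb over all genes in the tables (collagens 129.0 kb, integrins 71.6 kb, laminins 61.5 kb).

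Other genes of the same matrix were read from 4 lists. These were matrix partners of collagens and laminins, genes of collagen synthesis, genes of integrin and laminin signalling, and matrix proteases with their inhibitors. Of the matrix partners 16 of 16 scored genes had H3K4me3 in NSCs and 9 had lost it in neurons, against the 13.6% of all genes. The 9 were the basement membrane genes Nid1, Nid2 and Hspg2 (nidogens and perlecan), the elastic fibre genes Eln, Fbln1 and Fbn1, and Sparc, Thbs1 and Tnr. Hspg2 had 174 H3K4me3 reads over 23 in NSCs, but no neuronal peak closer than 79885 bp. At Fbn1 the neuronal peak lay 1530 bp from the start site. Those that kept it were Agrn, Bcan, Fbn2, Fn1, Ncan, Tnc and Vcan, several of them proteoglycans of brain matrix, with 82, 195, 79, 88, 97, 19 and 162 reads in neurons. The NSC peaks of the kept genes held 227 (Tnc) to 582 reads (Bcan), and those of the lost genes only 20 (Tnr) to 188 (Fbln1). Of all genes with fewer than 137.5 reads in the NSC peak, 52.3% had lost the mark. The part of peak depth in the losses of this list was not tested. Nid2 and Fn1 gained H3K27me3 in neurons, with 39 reads over 18 and 72 over 50. These were 2 of the 14 matrix partners with H3K4me3 alone in NSCs, against 2.76% of all such genes.
In the other lists H3K4me3 was lost at 2 of 12 collagen synthesis genes with the mark in NSCs, beside the 13.6% of all genes. It was lost at 1 of 11 integrin and laminin signalling genes (Bcam) and 1 of 7 protease or inhibitor genes (Timp4). P4hb and Serpinh1, of prolyl hydroxylase and the collagen chaperone, had 413 and 376 reads in NSCs and 54 in each case in neurons. Ilk and Tln1, of integrin-linked kinase and talin, had 355 and 354 reads in NSCs and 118 and 100 in neurons. Whether the lists differ from one another was not tested.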

How the data were processed

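Formaldehyde-fixed chromatin (1%) in fragments near 300 bp was immunoprecipitated and sequenced in 4 libraries, with 2 inputs. Per the submitters' processing notes, FastQC, Bowtie, SAMtools and SICER were used with build mm9. Their versions and parameters were not stated in these sources. SICER calls broad domains from windows, here of 200 bp as the peak bounds show. The deposited peak lists hold, per peak, counts of reads from the immunoprecipitate and from the input, a p-value, a fold over input (a ratio) and an FDR as the authors made them, all under an FDR of 0.001. Gene spans were taken from the deposited gene tables, 1 per library. The neuron H3K4me3 table runs to the same FDR, the other 3 only to 1e-20, and a table often names a farther peak than the nearest, so start sites were scored with the full lists.

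A gene was marked if a peak lay within 1 kb of its start site. Distances, widths and coverage were computed with Python 3.11.15, pandas 2.3.3 and numpy 2.4.6, and the scoring was tested on simulated data. Counting intervals are exact Poisson intervals (95%, scipy 1.17.1), and cover counting error only. With 1 library per cell type and antibody no test between cell types was possible, and shares are set beside those of all genes. Named with full values were genes whose mark differed between cell types, those with both marks, those with wide domains and those near the 1 kb limit. The counts include 1 laminin gene that is not reported here by itself. Genes and lists were chosen with earlier results of these data known. Promoter windows are from RefSeq (GRCm38.p6), matched by symbol, and no mm9 coordinate was converted. Alternatives tried were windows of 500 bp and 2.5 kb, peaks covering the start site, an FDR under 1e-20, equal numbers of peaks, the tables' own peaks, absence within 10 kb, summed widths and strict symbols. Counts without chromosome 1 and with head-to-head pairs counted once were added after seeing the data.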

Additional observations from a re-analysis of the deposited data

How the results depend on the processing

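The number of losses of H3K4me3 ranged from 10 to 15 over the alternatives. It was 15 of 22 at an FDR under 1e-20, where 40.1% of all genes lost the mark, and 10 of 22 with equal numbers of peaks, against 10.9%. Of the 12 genes 8 were lost under all 7 alternatives that were tried gene by gene (Col11a1, Col4a1, Col4a2, Col5a1, Itga3, Itga8, Itgb3 and Lama1), and no change reversed. Some genes that kept H3K4me3 by the main rule counted as lost under others. These were Col19a1, Col23a1, Itga1, Itga4 and Lamb1 at an FDR under 1e-20, and Col19a1, Itga4 and Itgb1 where peaks had to cover the start site. Col19a1 was also lost with a window of 500 bp and with the tables' own peaks. H3K27me3 calls depended more on the settings. Of the 7 gains 2 held under all (Col4a1 and Col4a2, which share a single domain), and of the 5 losses 0. At an FDR under 1e-20, H3K4me3 was at 7 genes in neurons (7510 of all genes, from 11580 by the main rule). H3K27me3 was then at 15 in NSCs and 9 in neurons (2461 and 1813 of all genes, from 3598 and 3355). There were 9 losses (of 15, against 41.0% of all genes) and 3 gains (all genes 2.22%) of H3K27me3. Both marks were at 5 genes in NSCs and 0 in neurons (803 and 105 of all genes, from 1601 and 861). With the peaks named in the gene tables alone, H3K4me3 was at 7 genes in neurons (9690 of all genes). It had 1 gain, Lama5 (708 gains over all genes). H3K27me3 was at 6 in NSCs and 5 in neurons (1453 and 955 of all genes). It had 5 losses (of 6, against 57.2%) and 4 gains (all genes 1.92%). Both marks were at 3 genes in NSCs and 0 in neurons (436 and 156 of all genes). Losses of H3K27me3 numbered 3 of 25 with a window of 2.5 kb (all genes 22.9%). They numbered 1 when absence meant none within 10 kb (all genes 8.95%). Without chromosome 1, H3K27me3 was at 15 genes in NSCs, with 3 losses. Where peaks had to cover the start site, both marks were at 1 gene in neurons (451 of all genes, from 861). The median width of 2000 bp (NSC H3K4me3), 1200 bp (neuron H3K4me3), 8400 bp (NSC H3K27me3) and 4600 bp (neuron H3K27me3) became 3400, 2500, 36600 and 19000 bp when summed over the gene, and at an FDR under 1e-20 the neuronal ones were 2400 bp for H3K4me3 and 7000 bp for H3K27me3. The cause of these differences was not tested. No paired analysis was possible because each group had 1 sample, and for the same reason no replicate could be left out. The lower enrichment of the neuron H3K4me3 library limits the detection of thin peaks there.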

Other observations

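H3K4me3 peaks also lay inside some of these genes, away from the start site. Itga9 held 26 H3K4me3 peaks in NSCs, which covered 51.2 kb or 17.3% of the gene with its 1 kb upstream, and 2 peaks in neurons, which covered 0.88%. Their median fold over input in NSCs was 3.11, with a highest value of 16.64, and their median read count was 48. Lamc1 held 12 peaks in NSCs and 5 in neurons, covering 21.2% and 8.01%. Lama5 held 4 and 1, covering 21.8% and 1.98%. The neuron H3K4me3 list has 14846 peaks and the NSC list 30416, and the part of this difference in the counts within genes was not tested.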
